A study of Mus musculus with 4 samples.

Results

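The 6 genes described here encode subunits of NADPH oxidases, the enzymes that transfer electrons from NADPH to oxygen to form superoxide or hydrogen peroxide. They were picked by name from 24421 gene symbols, and all 6 were measured in every library. Of these, 5 belong to the phagocyte oxidase: Cybb (gp91phox, the catalytic subunit), Cyba (p22phox, its membrane partner), Ncf1 (p47phox) and Ncf4 (p40phox), which are cytosolic organizers, and the small GTPase Rac2. Nox4 is the catalytic subunit of another oxidase and was set against them. RNA-seq had been performed on epididymal adipose tissue, a visceral fat depot, of wild-type (WT) male C57BL/6J mice, with 2 libraries per group. The WC1 (weight-cycling) mice were 8 weeks old when they received high-fat diet (HFD) for 8 weeks, standard diet for 2 weeks and HFD for 6 more weeks. The Ctrl (high-fat control) mice were 10 weeks old when they were put on HFD, which they ate without a break for 14 weeks. Both groups therefore reached 24 weeks of age with 14 weeks of HFD, and whether each library came from 1 mouse or from a pool is not stated in the sources at hand.

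The phagocyte oxidase is assembled on demand. In resting macrophages and neutrophils gp91phox and p22phox sit together in the membrane, whereas p47phox and p40phox wait in the cytosol, and stimulation brings the cytosolic subunits and GTP-bound Rac to the membrane. NOX4 also binds p22phox but needs no cytosolic organizer, forms mainly hydrogen peroxide, and is produced by fibroblasts, endothelial cells, smooth muscle cells and adipocytes. In obese adipose tissue the phagocyte subunits are thus known mainly from macrophages, and NOX4 from the stromal and fat cells.

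The tissue and the libraries were checked first. Adipocyte markers summed to between 10313 and 23906 CPM (reads scaled to library size) and macrophage markers to between 5618 and 13169 CPM, and 4 of 5 epididymis markers were at 0 in every library. The exception, Adam7, was at 0 and 0 CPM in the Ctrl libraries and 3.02 and 0.0318 CPM in WC1. Neutrophils, which also carry the phagocyte oxidase, left little trace: their 10 measured markers summed to between 21.3 and 30.9 CPM, and the granule genes Ngp and Mpo were at 0 and at no more than 0.322 CPM. Of the 4 neutrophil markers tested 1, S100a8, was called higher in WC1, as were 10.2% of all genes tested. The reads recovered per library ranged from 61465029 to 90965297, so that a value of 0 allows a level of up to 3 reads, at most 0.0492 CPM, counting error alone considered. In this bulk tissue fewer cells of a type and less RNA per cell cannot be told apart.

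All 6 genes are protein-coding, and their positions are given for mm10, the build named for these data. Cybb lies on chromosome X (9435252 to 9487771, minus strand), Cyba on chromosome 8 (122424776 to 122432930, minus), Ncf1 on chromosome 5 (134220053 to 134229625, minus) and Nox4 on chromosome 7 (87246096 to 87398710, plus). Ncf4 (78244801 to 78262580, plus) and Rac2 (78559167 to 78572783, minus) are both on chromosome 15. Ncf1 shares 4303 bases with Gtf2ird2 on the opposite strand. Whether strand was used in counting is not stated in the sources at hand, and Gtf2ird2 stood at 7.68 and 7.44 CPM in the Ctrl libraries and 8.08 and 6.70 CPM in WC1 (log2 fold change -0.03, not called). Cyba lies within Gm20388, a gene annotated on the opposite strand.

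RefSeq (GRCm38.p6) promoters, from 250 bases before to 50 after the RefSeq start, were at hand for 4 of the 6 genes: Cybb, Cyba, Ncf1 and Nox4. They were searched on both strands for 6 motifs: GAGGAA (the core bound by PU.1 and other ETS factors), TTGCNNAA (C/EBP), the IRF motif (a pair of GAAA with 2 bases between), TGANTCA (AP-1), TATAAA and CCAAT. The IRF motif was found in Cybb, where 3 copies lay, and once in Ncf1, but not in Cyba or Nox4, and 3.44% of 32851 promoters of this length hold it. The GAGGAA motif, held by 28.3% of promoters, was found once in Cybb only, as were CCAAT (37.4%) and TGANTCA (7.81%). TTGCNNAA (10.8%) and TATAAA (13.6%) were in none of the 4. The windows also differed in base composition, with a GC content of 35.3% in Cybb, 54.0% in Ncf1, 60.7% in Cyba and 68.3% in Nox4. The windows of Cybb (chrX:9469275-9469574, minus strand), Ncf1 (chr5:134229576-134229875, minus) and Nox4 (chr7:87246399-87246698, plus) are shown because they pair 2 phagocyte subunits that were lower in WC1 with the oxidase set against them. The window of Cyba, which was also lower in WC1 and held no IRF motif, is not shown. Capitals mark the IRF motif on either strand, and a match of letters is a description, not a binding site.
Cybb: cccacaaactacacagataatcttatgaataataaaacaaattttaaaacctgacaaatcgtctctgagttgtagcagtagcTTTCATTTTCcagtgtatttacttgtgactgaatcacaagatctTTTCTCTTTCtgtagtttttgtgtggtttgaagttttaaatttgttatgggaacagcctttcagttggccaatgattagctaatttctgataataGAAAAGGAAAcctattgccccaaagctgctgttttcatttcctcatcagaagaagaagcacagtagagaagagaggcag
Ncf1: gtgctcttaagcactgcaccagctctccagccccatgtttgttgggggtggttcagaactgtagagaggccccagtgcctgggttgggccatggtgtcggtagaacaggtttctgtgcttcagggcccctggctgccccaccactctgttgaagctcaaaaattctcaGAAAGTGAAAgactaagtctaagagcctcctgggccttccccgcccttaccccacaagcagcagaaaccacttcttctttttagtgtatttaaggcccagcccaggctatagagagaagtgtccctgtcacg
Nox4: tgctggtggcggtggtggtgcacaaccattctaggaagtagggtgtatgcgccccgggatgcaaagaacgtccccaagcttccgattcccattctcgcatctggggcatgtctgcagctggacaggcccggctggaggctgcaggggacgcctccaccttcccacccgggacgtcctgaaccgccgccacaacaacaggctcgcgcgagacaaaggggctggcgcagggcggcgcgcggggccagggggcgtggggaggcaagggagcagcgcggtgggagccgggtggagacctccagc

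The main question was how the subunits differed between WC1 and Ctrl. The 5 phagocyte subunits were each lower in both WC1 libraries than in either Ctrl library, whereas the Nox4 libraries of the groups overlapped. Of all genes tested, 36.6% likewise had both WC1 libraries below both Ctrl libraries, so that separation alone says little. In limma, 4 of the 5 (Cybb, Cyba, Ncf1 and Rac2) fell at an adjusted p under 0.05, where 7.71% of the 14106 genes tested were called lower and 10.2% called higher (1088 and 1443 genes, against 552 lower and 1949 higher in TPM). All 6 genes passed the filter on low values in every library. Fold changes below are WC1 minus Ctrl on log2(CPM + 1), with the standard error (SE) of the fit, and means are given with the SD of 2 libraries.

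Cybb stood at 375 and 336 CPM in the Ctrl libraries and 246 and 170 CPM in WC1. Its mean went from 355 ± 27 to 208 ± 54 CPM (SD, n = 2 per group), and it fell by 0.79 ± 0.19 on the log2 scale (SE, limma adjusted p = 0.049). Cyba stood at 459 and 440 CPM in the Ctrl libraries and 296 and 220 CPM in WC1. It fell by 0.81 ± 0.16 (SE, limma adjusted p = 0.032), nearly the same value as that of Cybb. The length-corrected level (TPM) of Cyba was 7.68 and 8.22 times that of Cybb in Ctrl and 7.54 and 8.09 times in WC1, so that the groups overlapped. The exact permutation test of this ratio gave p = 0.67 (two-sided), and with 4 libraries, which fall into pairs in 3 ways, this test cannot go below p = 0.33.

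The cytosolic organizers changed by different amounts. Ncf1, whose product carries the cytosolic complex to p22phox, stood at 310 and 306 CPM in the Ctrl libraries and 139 and 102 CPM in WC1. It fell by 1.36 ± 0.15 (SE, limma adjusted p = 0.015), and the WC1 mean was 0.392 of the Ctrl mean. Ncf4, whose product binds a phosphoinositide of phagosome membranes, stood at 66.5 and 65.6 CPM in the Ctrl libraries and 57.1 and 39.3 CPM in WC1. The Ncf4 libraries did not overlap either, but its log2 fold change of -0.47 ± 0.18 was not called (SE, limma adjusted p = 0.13, 95% interval -0.93 to -0.01). The ratio of Ncf1 to Ncf4 in TPM was 2.49 and 2.50 in Ctrl and 1.30 and 1.39 in WC1. This was the widest gap among the phagocyte subunits, and it reached the smallest p that the exact permutation test allows (p = 0.33, two-sided). The values differed by more than the spread within each group, and no other test of this ratio was run.

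Rac2, the Rac GTPase of blood cells, stood at 213 and 204 CPM in the Ctrl libraries and 129 and 90.5 CPM in WC1. It fell by 0.94 ± 0.17 (SE, limma adjusted p = 0.030). Rac1, its widely expressed relative, stood at 449 and 467 CPM in the Ctrl libraries and 414 and 387 CPM in WC1, a log2 fold change of -0.20 ± 0.09 that was not called (SE, limma adjusted p = 0.17). The ratio of Rac2 to Rac1 in TPM was 0.354 and 0.327 in Ctrl and 0.233 and 0.175 in WC1. Reads of related GTPases can be shared, and how such reads were assigned is not stated in the sources at hand.

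Nox4 stood at 7.08 and 8.53 CPM in the Ctrl libraries and 8.10 and 6.13 CPM in WC1, on 386 to 742 reads per library. The highest value was in a Ctrl library and the lowest in a WC1 library, but the WC1 value of 8.10 lay between those of Ctrl. Its log2 fold change was -0.12 ± 0.17 (SE, limma adjusted p = 0.62), with a 95% interval from -0.55 to 0.30. This interval held the Ncf4 value of -0.47, so that a change of that size in Nox4 was not excluded. The direction of the Nox4 value turned in TPM (0.014, where the median of all genes was 0.10 against -0.02 in CPM) and without WC1 library 2 (0.052).

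**Figure D1:**
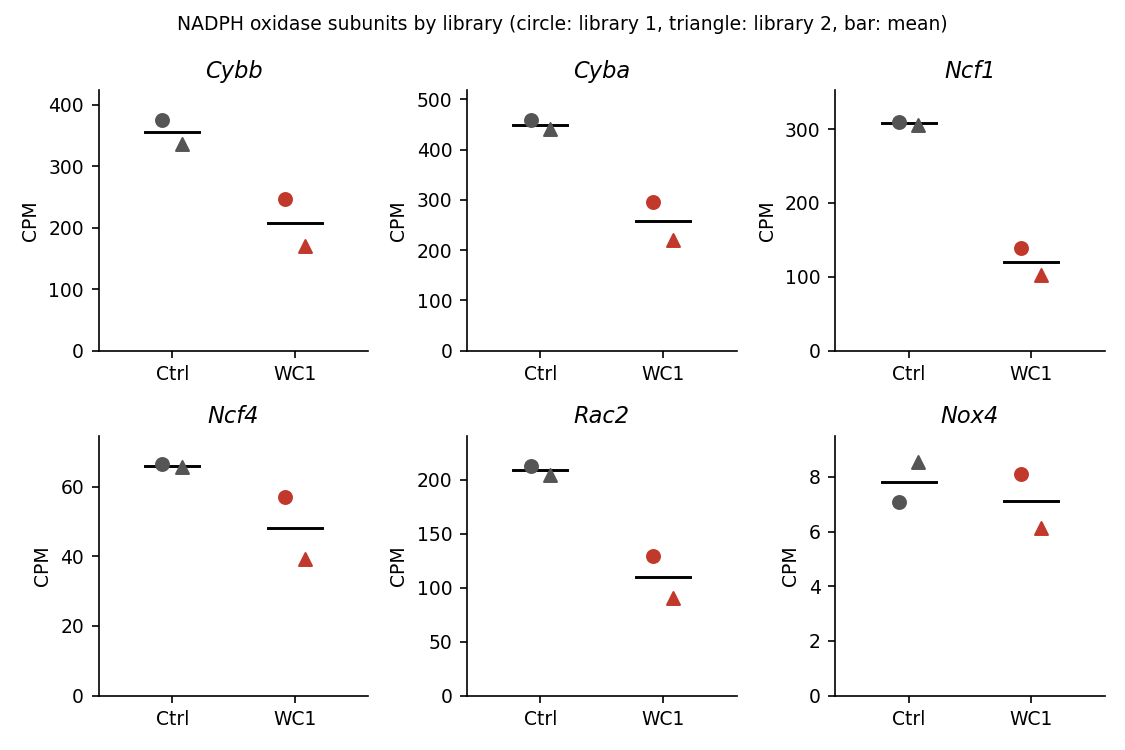
CPM of the 6 subunits (vertical axes, each from 0) in the Ctrl and WC1 libraries, with circles for library 1, triangles for library 2 and bars for the mean of 2 libraries. In each phagocyte subunit both WC1 points lie below both Ctrl points, and the lower WC1 point is library 2, whereas the Nox4 points of the groups interleave between 6.13 and 8.53 CPM.

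Library 2 of WC1 was the lower one in all 6 genes. Without it the log2 fold changes were -0.53 for Cybb, -0.60 for Cyba, -1.14 for Ncf1, -0.21 for Ncf4 and -0.69 for Rac2. Without library 1 of WC1 they were -1.05, -1.03, -1.58, -0.74 and -1.20, and all 5 subunits were then called in limma, where 19.5% of all genes were called lower. Without Ctrl 1 or without Ctrl 2, 0 of the 5 were called in limma, where 6 and 12 of all genes tested were called, although 4 were lower at an unadjusted p under 0.05 each time (7.88% and 9.18% of all genes were) and the fold changes stayed between -1.37 and -0.46. The call of Cybb was the least firm, since 7 of 13 alternatives lost it (limma adjusted p up to 0.27). In edgeR on recovered reads its adjusted p was 0.053.

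Levels were then ranked per length, in TPM. In Ctrl the order was Cyba (1157 and 1122), Ncf1 (218 and 217), Cybb (151 and 137), Rac2 (134 and 130), Ncf4 (87.4 and 87.0) and Nox4 (3.51 and 4.38), and no neighbours overlapped. In WC1 Cyba was still first (815 and 624), and Nox4 last (4.49 and 3.51). The 4 subunits between them, Cybb (108 and 77.1), Ncf1 (106 and 80.9), Rac2 (88.5 and 64.1) and Ncf4 (81.8 and 58.1), overlapped. Ncf1 was thus 1.44 and 1.59 times as abundant as Cybb in the Ctrl libraries and 0.984 and 1.05 times as abundant in WC1.

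Next, each phagocyte subunit was compared with Nox4 within the same library. On the log2 scale of CPM + 1, Ncf1 exceeded Nox4 by 5.27 and 5.01 in Ctrl and by 3.94 and 3.86 in WC1, a difference between groups of -1.24. For Rac2 the differences from Nox4 were 4.73 and 4.43 against 3.84 and 3.68 (-0.82 between groups), for Cyba 5.83 and 5.53 against 5.03 and 4.95 (-0.69), and for Cybb 5.54 and 5.14 against 4.76 and 4.59 (-0.67). For Ncf4 they were 3.06 and 2.80 against 2.68 and 2.50, the smallest difference between groups (-0.35). The groups did not overlap in any of the 5, and relative to Nox4 12.8% of all genes tested were separated in this direction. The exact permutation test gave p = 0.33 (two-sided) for each, the smallest it allows.

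The same differences were fitted in limma over the other 14105 genes, of which 1.86% were called lower relative to Nox4. Ncf1 and Rac2 were called (limma adjusted p = 0.00015 and 0.027), and Cyba, Cybb and Ncf4 were not (0.083, 0.10 and 0.70). The call of Ncf1 was lost without Ctrl 1 (-1.11) or Ctrl 2 (-1.37), and that of Rac2 without Ctrl 1 (-0.67), Ctrl 2 (-0.97) or WC1 2 (-0.74). Both calls were also lost with the replicate number fitted as a block, and that of Rac2 at a pseudocount of 0.1. The p values of this limma fit are too small, because the spread of Nox4 itself enters every gene and the fit treats it as known. A t test was therefore made on the limma fold changes with the errors of both genes combined. In it none of the 5 was called (adjusted p between 0.13 and 0.56), and the unadjusted p was under 0.05 for 4. The 95% intervals of the difference were then -1.82 to -0.66 for Ncf1, -1.44 to -0.20 for Rac2, -1.27 to -0.11 for Cyba, -1.31 to -0.02 for Cybb and -0.97 to 0.28 for Ncf4. The interval of Ncf1 lay farthest from 0, and that of Ncf4 held it. These intervals and the t test treat the errors of each gene and of Nox4 as independent. Both were measured in the same libraries, so that the combined errors may be too large or too small.

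**Figure D2:**
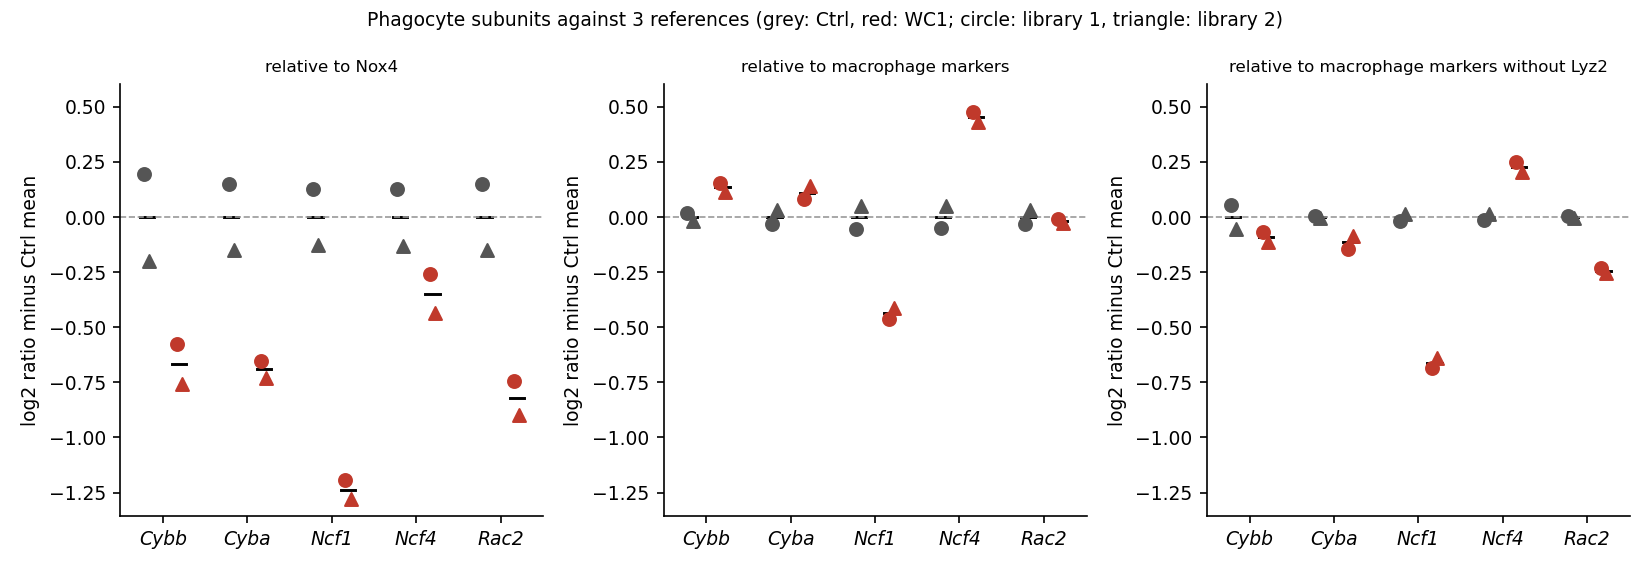
Log2 ratio of each phagocyte subunit to Nox4 (left), to the summed macrophage markers (middle) and to that sum without Lyz2 (right), minus the Ctrl mean, by library, with bars for group means. Relative to Nox4 all 5 subunits lie lower in both WC1 libraries, whereas relative to either macrophage sum Ncf1 is lower, Ncf4 is higher and the group means of Cybb and Cyba differ by at most 0.13.

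Macrophage markers moved with the phagocyte subunits. All 12 were lower in WC1, and 7 were called lower, including Mrc1 (-0.89), Mertk (-0.60) and Lyz2 (-1.25), where 7.71% of all genes tested were. Their median log2 fold change was -0.68, compared to -0.81 over the 5 subunits and -0.02 over all genes tested. Their summed level was 13169 and 12091 CPM in Ctrl and 7871 and 5618 CPM in WC1. Pan-leukocyte markers were also lower (6 of 6, of which Cd53, Cd48 and Laptm5 were called), from 2246 and 2134 to 1608 and 1104 CPM. Their part in the fall of the subunits was not tested, but the subunits could be read against them in each library. Relative to the macrophage sum, Ncf1 was lower in WC1 by 0.44 and Ncf4 higher by 0.45 on the log2 scale, while Cybb (0.13) and Cyba (0.11) differed less and Rac2 (-0.02) overlapped between groups. Lyz2, which encodes lysozyme, held 36.5% to 47.0% of that sum. Without Lyz2 the values were -0.66 for Ncf1, 0.23 for Ncf4, -0.24 for Rac2, -0.11 for Cyba and -0.09 for Cybb, so that the directions of Cybb and Cyba turned. Relative to the pan-leukocyte sum they were -0.64, 0.25, -0.23, -0.10 and -0.07. Cybb and Cyba were also separated between groups relative to each of the 3 references, but not in 1 direction. They were higher in WC1 relative to the first, as 95.3% of all genes tested were, and lower relative to the last 2. Rac2 was separated relative to the last 2 only, and lower in WC1. Of all genes tested, 1.15%, 2.06% and 2.0% lay lower in WC1 without overlap relative to the 3 references, as Ncf1 did, and 95.3%, 90.9% and 90.6% lay higher, as Ncf4 did, so that Ncf4 shared this direction, though not its size, with most genes (exact permutation p = 0.33 for both, the smallest possible). Without Ctrl 1 or without Ctrl 2, limma called 0 of the 75 marker genes tested over all marker lists, of which it called 33 with all libraries.

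Markers of the cells that are known for NOX4 did not move one way. Fibroblast markers were lower in 7 of 8 genes, with 3 called lower (Pdgfra, Dcn and Lum) and a sum of 5841 and 5791 CPM in Ctrl and 5468 and 4281 CPM in WC1. Endothelial markers were higher in 7 of 7 genes (5 called, among them Cldn5 at 1.76 and Kdr at 1.43), smooth muscle and pericyte markers in 6 of 7 (4 called, with Acta2 at 1.19), and adipocyte markers in 10 of 10 (7 called, with Adipoq at 1.23). Over all genes tested 7.71% were called lower and 10.2% higher. The summed endothelial level was 372 and 421 CPM in Ctrl and 836 and 1090 CPM in WC1. How much each of these cells adds to the Nox4 reads was not tested.

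**Figure D3:**
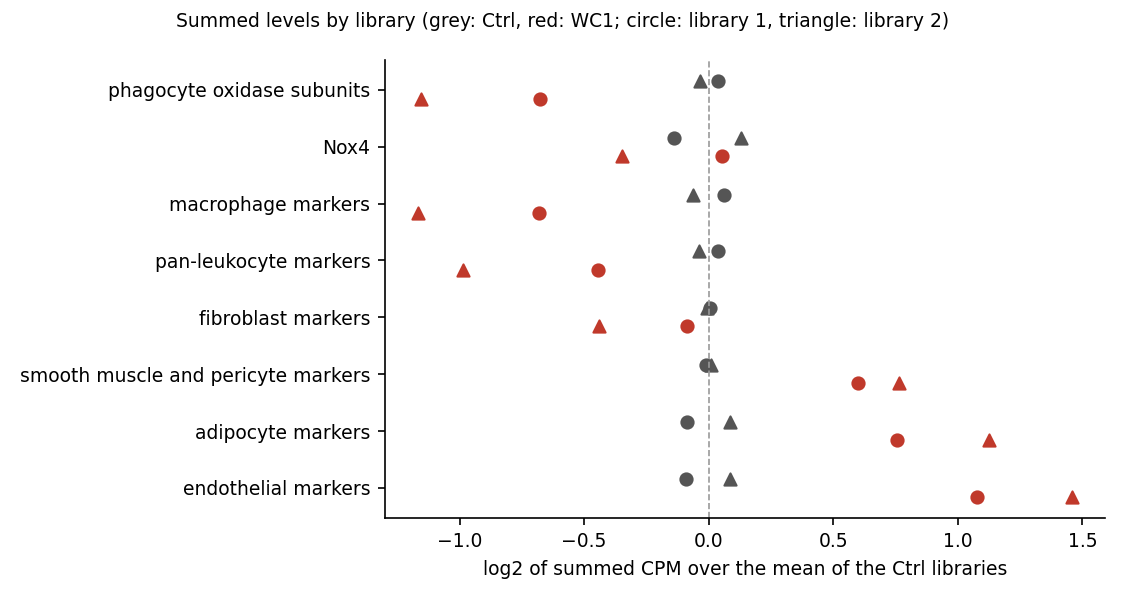
Log2 of the summed CPM of each list over the mean of the Ctrl libraries (horizontal axis), by library. The phagocyte subunits lie near the macrophage markers, with WC1 library 2 farthest to the left, Nox4 spreads around 0, and smooth muscle, adipocyte and endothelial markers lie to the right in both WC1 libraries.

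Other oxidase genes were examined as a list of 15, of which 14 were in the files and 9 passed the filter. In limma 1 fell and 4 rose, where 7.71% of all genes tested were called lower and 10.2% higher. The median log2 fold change was 0.05. The called decrease was in Rac3, a Rac GTPase known mainly from the nervous system, at 5.21 and 4.84 CPM in Ctrl against 3.29 and 2.80 CPM (-0.58, limma adjusted p = 0.040). Duox1, a peroxide-forming dual oxidase known from epithelia, stood at 1.96 and 2.24 CPM in the Ctrl libraries and 4.75 and 4.0 CPM in WC1 (0.79 ± 0.13 SE, limma adjusted p = 0.026). Duoxa1, its maturation factor, stood at 6.27 and 8.89 CPM in the Ctrl libraries and 15.2 and 18.8 CPM in WC1 (1.08 ± 0.19 SE, limma adjusted p = 0.028). Sh3pxd2a (Tks5, an organizer-related scaffold of podosomes) rose by 1.02 and Poldip2, whose product binds p22phox and NOX4, rose by 0.48. Without Ctrl 1 or without Ctrl 2, limma called 0 of these 9 genes.

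Of the rest, Rap1a (-0.14), Sh3pxd2b (-0.34) and Noxo1 (0.05) were not called. The catalytic subunits Nox1, Nox3 and Duox2 and the partners Noxa1 and Duoxa2 did not pass the filter, with no library above 0.310 CPM, and Cybc1, a chaperone of the membrane pair, was not analysed here.

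**Figure D4:**
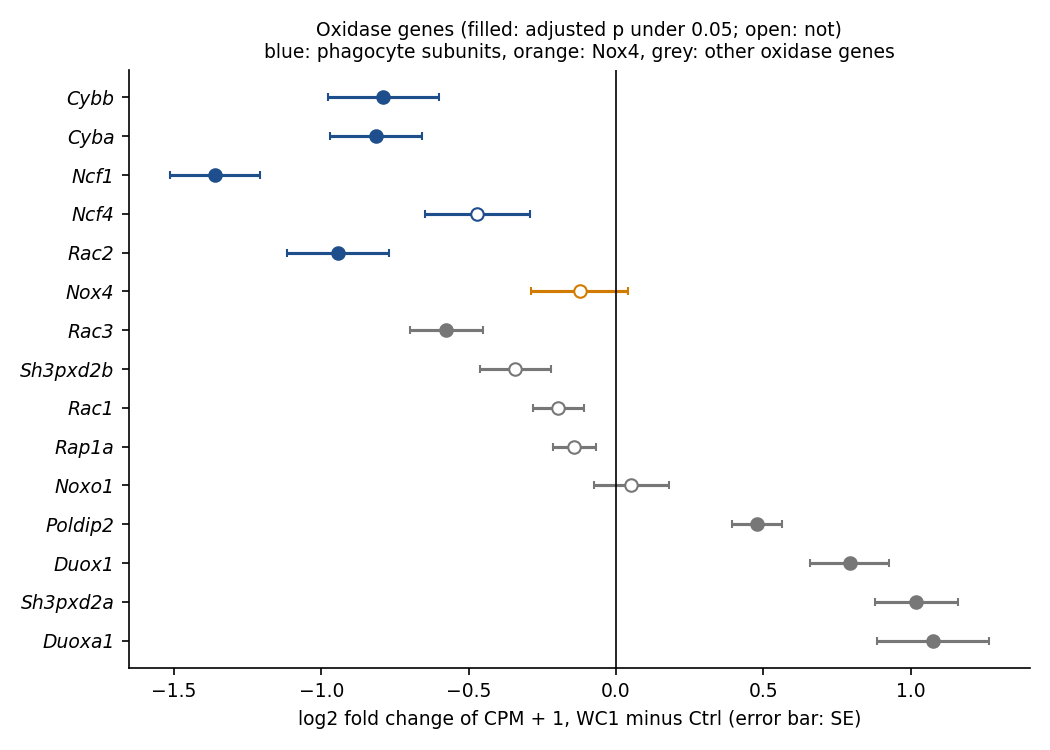
Log2 fold change (WC1 minus Ctrl, horizontal axis) with SE for the 5 phagocyte subunits (blue), Nox4 (orange) and the 9 other oxidase genes tested (grey), with filled points for a limma adjusted p under 0.05. Ncf1 at -1.36 lies farthest to the left, and Duoxa1 at 1.08 and Sh3pxd2a at 1.02 lie farthest to the right.

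Proteins that switch the phagocyte oxidase on or off formed a list of 21 genes. In limma 6 fell, 0 rose and 15 were not called, with a median log2 fold change of -0.37. Over all genes tested 7.71% were called lower and 10.2% higher. Hvcn1, the proton channel that carries off the charge left by the oxidase, went from 198 and 179 CPM in Ctrl to 69.4 and 52.5 CPM in WC1 (-1.62 ± 0.15 SE, limma adjusted p = 0.012). Prkcb, a kinase that phosphorylates p47phox, went from 198 and 180 to 88.6 and 50.7 CPM (-1.48 ± 0.26 SE, limma adjusted p = 0.028). Arhgdib, which holds Rac GTPases in the cytosol, fell by 0.92, and Pla2g4a, a phospholipase that frees arachidonic acid, fell by 0.86. Relative to the macrophage sum Hvcn1 was lower in WC1 by 0.70 with Lyz2 and by 0.92 without it. Of the 21 genes limma called 0 without Ctrl 1 or Ctrl 2 (6 and 12 of all genes) and 16 without WC1 1, where 36.7% of all genes were called in either direction.

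Of 9 tested transcription factors known to act on the phagocyte subunits, 1 was called lower and 8 were not called (median -0.02). Over all genes tested 7.71% were called lower and 10.2% higher, so that this count says little about the factors. Cebpb fell from 70.5 and 73.6 to 39.6 and 43.8 CPM (-0.78, limma adjusted p = 0.014). Spi1, which encodes PU.1, stood at 222 and 225 CPM in the Ctrl libraries and 177 and 121 CPM in WC1, a log2 fold change of -0.61 ± 0.18 that was not called (SE, limma adjusted p = 0.080), and Runx1 (-0.39) and Cebpa (0.18) were not called either. Spi1 was called without WC1 1 (-0.88, limma adjusted p = 0.00075), without WC1 2 (-0.34, adjusted p = 0.023) and in DESeq2 (adjusted p = 0.011), Runx1 without WC1 1 (-0.55) and in DESeq2, and Cebpa without WC1 1 (0.25). Among 6 tested genes that handle superoxide and peroxide, Sod3, the extracellular superoxide dismutase, rose from 273 and 345 to 549 and 719 CPM (1.03 ± 0.18 SE, limma adjusted p = 0.028). Gpx3, the glutathione peroxidase of plasma, fell by 0.55, and Sod2 (0.56) and Gpx1 (-0.50) were not called. Sod2 was called without WC1 1 (0.78, limma adjusted p = 0.0016), without WC1 2 (0.34, adjusted p = 0.040) and in DESeq2, and Gpx1 without WC1 1 (-0.67) and in DESeq2. Both lists had 0 calls in limma without Ctrl 1 or Ctrl 2, and 5 and 4 without WC1 1.

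Finally, the genes whose pattern over the 4 libraries was nearest to that of Cybb or Nox4 were sought among 11116 genes with a mean of at least 5 CPM, by the distance of log2(CPM + 1) centred on its mean. Nearest to Cybb were the lysosomal protease gene Lgmn (distance 0.04, log2 fold change -0.80), the phosphatase gene Ptpn7 (0.05, -0.77) and the lysosomal galactosidase gene Gla (0.05, -0.79). Nearest to Nox4 were Agap1 (0.05, -0.10), Trerf1 (0.05, -0.09) and Lipt2 (0.06, -0.15). Among the members, Cybb lay nearer to Cyba (0.10) and Rac2 (0.17) than to Ncf4 (0.33) and Ncf1 (0.58), and it was 0.73 from Nox4. With 4 libraries this is a description only.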

How the data were processed

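RNA-seq of epididymal adipose tissue was analysed in 2 Ctrl and 2 WC1 libraries, grouped by sample title. Poly(A) RNA had been made into directional libraries. The submitters' processing notes name fastp, HISAT2, StringTie and mm10, without roles, and the read counter is not stated in the sources at hand. The CPM deposited by the authors are a signal proportional to reads, each gene's reads divided by a rescaled library size: columns summed to 97.6% to 105% of the CPM scale, and 100% of values were whole multiples of 1 read (tolerance 0.01 read). The TPM deposited by the authors are corrected for length and served for levels between genes.

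Testing covered the 14106 of 24421 genes that reached 0.5 CPM in 2 or more libraries, on log2(CPM + 1), which understates changes of low genes, with limma 3.58.1 in R 4.3.3 (trend, two-sided) and Benjamini-Hochberg adjustment over all tested genes, at 0.05. The study's methods name the same minimum of 0.5 and the tool iDEP for fold changes. Each gene was also fitted relative to Nox4. Exact permutation tests used the 4 libraries. Genes named were the 6 subunits, the measured other oxidase genes, the 4 genes of smallest p in each further pathway list, the 2 genes of smallest p and the 1 of highest mean in marker lists where a value was needed, and the 3 genes nearest to Cybb and to Nox4. Lum, Adam7, Ngp, Mpo, S100a9 and Gtf2ird2 were named after their values were seen. The members and lists were chosen with earlier results of these data known. Some listed genes are not reported here and were left out of the lists and their counts. Marker lists for dendritic, B, T and NK, and mesothelial cells had 2, 1, 0 and 0 genes called by limma (the last 2 lists also 0 at an unadjusted p under 0.05). The mesothelial markers summed to 110 and 80.8 CPM in Ctrl and 56.5 and 149 CPM in WC1, so that the WC1 libraries lay far apart. Alternatives included edgeR 4.0.16 and DESeq2 1.42.0 on recovered reads. The scripts were tested on simulated data. The study gives n = 2 per group for RNA-seq without saying whether each library was 1 mouse, so p values measure the spread between libraries, which may be technical.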

Additional observations from a re-analysis of the deposited data

How the results depend on the processing

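Of the 4 called phagocyte subunits, 0 were called without Ctrl 1 or without Ctrl 2 and the number called ranged from 0 to 5 over the libraries left out. With no filter on low values 1 (Ncf1) was called, and 4 more alternatives (pseudocount 5, a mean of 5 CPM, TPM, edgeR) gave 3. All 5 fold changes stayed negative in every alternative. The list counts of 5 other oxidase genes, 6 activators and inhibitors, 1 transcription factor and 2 genes of superoxide and peroxide handling ranged from 0 to 6, 0 to 16, 0 to 5 and 0 to 4 over the libraries left out. With no filter on low values they were 3, 3, 1 and 0, with a mean of 5 CPM, which tests fewer genes, the first was 3, in DESeq2 the last 3 were 10, 3 and 4, and in TPM the last was 1. Relative to Nox4, Rac2 was not called at a pseudocount of 0.1 (-0.81), Cybb and Cyba were called at a pseudocount of 5 (-0.70 and -0.72), and Ncf1 and Rac2 were not called with the errors of both fold changes combined (-1.24 and -0.82). This last alternative and the values relative to other references were chosen after seeing the data. Over the libraries left out the Nox4-relative value of Ncf1 ranged from -1.37 to -1.11 and that of Rac2 from -0.97 to -0.67. Direction turned for Nox4 in TPM (0.014) and without WC1 2 (0.052; -0.30 to 0.052 over the libraries left out). It turned in the same settings for Col1a2 (0.020 and 0.080, from -0.32), Agap1 (0.043 and 0.092, from -0.28) and Trerf1 (0.047 and 0.053, from -0.24), for Trerf1 also without Ctrl 2 (0.035), and for Noxo1 without WC1 1 (-0.017, up to 0.12). Over all genes, 1088 lower and 1443 higher calls became 532 and 788 with no filter, 1736 and 2125 in DESeq2, 4 and 2 without Ctrl 1, 6 and 6 without Ctrl 2, and 2748 and 2424 without WC1 1. The cause was not tested. The labels number the libraries of each group 1 and 2, and differences between libraries 1 and 2 correlated at r = 0.19 over genes, but 2 pairs are too few to show pairing. With the replicate number as a block 4 subunits were called, as were 10 activators and inhibitors and 2 transcription factors. Of all 14106 genes tested, 1497 were then called lower and 1769 higher. With this block Spi1 (limma adjusted p = 0.049) and Sod2 (0.024) were gained, and relative to Nox4 neither Ncf1 (-1.24) nor Rac2 (-0.82) was called. Leaving out 1 library leaves a group with 1, which is then assumed to vary like the other group. Nox4 rests on 386 to 742 reads per library.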

Other observations

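S100a8 and S100a9 encode partners of calprotectin, a protein of neutrophils that also binds the phagocyte oxidase. S100a8 was at 6.93 and 4.70 CPM in the Ctrl libraries and 12.4 and 18.7 CPM in WC1, and its log2 fold change was 1.27 (limma adjusted p = 0.034). S100a9 was at 0.658 and 0.356 CPM in the Ctrl libraries and 0.0983 and 0.159 CPM in WC1, below the filter, and it was not tested, nor was the difference between both genes. The call of S100a8 was lost without Ctrl 1 (adjusted p = 0.15), without Ctrl 2 (0.16) and with no filter on low values (0.063).

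B cells also carry the phagocyte oxidase. The summed level of 5 B cell markers was 4.37 and 2.59 CPM in Ctrl and 7.37 and 28.0 CPM in WC1, so that the second WC1 library, in which the phagocyte subunits were lowest, had the highest level. Of these markers Cd79b was called (0.95, limma adjusted p = 0.049), and Cd79a was not (1.66, adjusted p = 0.11). Cd79a was called without WC1 1 (2.57, limma adjusted p = 0.00066), without WC1 2 (0.75, adjusted p = 0.047) and in DESeq2 (adjusted p = 0.00012), and it stood at 2.02 and 9.64 CPM in the WC1 libraries. The call of Cd79b was lost at a pseudocount of 5 (limma adjusted p = 0.059), with no filter (0.082), with median-of-ratios scaling (0.051) and without Ctrl 1 or Ctrl 2 (0.22 each).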
